A study of Homo sapiens with 24 samples.

Results

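FOS, FOSB, FOSL1, JUN, JUNB, JUND, EGR1, EGR3, IER2 and ATF3 were followed as immediate early transcription factor genes in RNA-seq of HEK293T, a human embryonic kidney cell line. The members were taken by gene name, and all 10 were found among the 58884 genes listed. The study asked how the accumulation of SETD2, the enzyme that trimethylates histone H3 at lysine 36 (H3K36me3), alters transcription. A first table holds 2 libraries of untreated wild-type cells (WT) and 2 of untreated SETD2 knockout cells (KO), a HEK293T derivative in which both alleles of the endogenous gene are disrupted. A second table holds 2 libraries of untreated KO cells, 2 of KO cells transfected with full-length SETD2 (SETD2 FL) and 2 of KO cells transfected with a C-terminal segment, residues 1404 to 2564 (SETD2 C). Per the study's methods, the tagged constructs were driven by a CMV promoter and RNA was isolated 72 h after transfection. The RNA tables analysed here hold no mock or empty-vector library, so a difference between a transfected group and KO cannot be told apart from the transfection itself, whereas SETD2 C and SETD2 FL are both transfected. The labels do not say that replicates came from separate cultures, so p-values measure the spread between these libraries, which may be technical.

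Immediate early genes are transcribed within minutes of a stimulus such as serum, a growth factor or stress, from factors that are already present in the cell, and their RNA is usually short-lived. FOS and JUN proteins pair through leucine zippers to form AP-1, which binds promoters and enhancers of genes for growth, matrix turnover and stress responses. FOS family proteins bind DNA only with a partner, while JUN proteins can also pair with themselves, and ATF3 is a related zipper protein induced by stress. EGR1 and EGR3 are zinc finger factors that bind GC-rich sites, and IER2 is a small nuclear protein of the same early response.

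The 10 genes have few exons. On GRCh38 with GENCODE 44 annotation, FOS (ENSG00000170345) lies on chromosome 14 from 75278826 to 75282230, plus strand. FOSB (ENSG00000125740) lies on chromosome 19 from 45467995 to 45475179, plus strand, and FOSL1 (ENSG00000175592) on chromosome 11 from 65892049 to 65900573, minus strand. JUN (ENSG00000177606) lies on chromosome 1 from 58776845 to 58784048, minus strand, and its paralogs JUNB (ENSG00000171223, 12791486 to 12793315, plus strand) and JUND (ENSG00000130522, 18279694 to 18281622, minus strand) both lie on chromosome 19. EGR1 (ENSG00000120738) lies on chromosome 5 from 138465479 to 138469303, plus strand. IER2 (ENSG00000160888) lies on chromosome 19 from 13150411 to 13154911, plus strand, and ATF3 (ENSG00000162772) on chromosome 1 from 212565334 to 212620777, plus strand. All 10 canonical transcripts have at most 4 exons, which holds for 27.2% of 19550 protein-coding genes, and the 3 JUN family transcripts have 1 exon, as do 4.23% of those genes.

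Some of their 3′ UTRs carry AU-rich motifs of the kind that marks short-lived mRNAs. TATTTAT occurred in the 3′ UTR of 6 of the 10, against 31.5% of the protein-coding genes. FOS had 5 copies of ATTTA in 806 bases of 3′ UTR (6.20 per kb, percentile 94.6 of the same genes) and JUNB had 2 in 500 bases (4 per kb, percentile 84.5) but no TATTTAT. JUN and ATF3 lay at percentiles 63.5 and 65.7 for ATTTA. The other 6 members lay below the median gene, which had 1.5 per kb: FOSB, FOSL1, JUND, EGR1 and EGR3 were at percentiles 39.1 to 48, and IER2 had none. A stretch of 30 bases from FOS and JUNB is shown, with ATTTA in capitals, because the level of these mRNAs reflects decay as well as synthesis; the FOS stretch, bases 634 to 663 of its 3′ UTR, holds 2 overlapping copies and the JUNB stretch, bases 245 to 274, holds 1.
FOS: tgtgtttttaATTTATTTAttaagatggat
JUNB: atatatttgtgtATTTAacagggaggggaa

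The promoter windows searched here differ in the motifs they hold. RefSeq windows on GRCh38.p14 from 250 bases before to 50 after the start were at hand for 8 of the members, as 9 windows because ATF3 has 2 starts. FOSL1 and EGR3 were not among them. The motifs searched on both strands were the cAMP response element TGACGTCA, its core TGACG, the AP-1 site TGACTCA, the JUN-ATF site TGACATCA, the EGR site GCGNGGGCG and the CArG box bound by serum response factor, and TATAAA was searched on the gene's own strand. In the member windows a core inside TGACGTCA was counted once, as the longer motif, while the share of TGACG over all windows includes such cores. Over all 35116 windows, TGACG was found in 24.6%, TGACTCA in 4.95%, TGACATCA in 2.61%, TGACGTCA in 1.85%, GCGNGGGCG in 9.43%, TATAAA in 7.33% and the CArG box in 1.29%. Such matches describe the letters of the window and not a bound site. The 250 bases before the start are shown for FOS, JUNB and JUN, which differed between SETD2 C and SETD2 FL, and for EGR1, which did not pass that test, with every motif in capitals, 5′ to 3′ on the gene's strand. The positions are chr14:75278578-75278827 (plus strand) for FOS, chr19:12791236-12791485 (plus) for JUNB, chr1:58784048-58784297 (minus) for JUN and chr5:138465229-138465478 (plus) for EGR1.
FOS: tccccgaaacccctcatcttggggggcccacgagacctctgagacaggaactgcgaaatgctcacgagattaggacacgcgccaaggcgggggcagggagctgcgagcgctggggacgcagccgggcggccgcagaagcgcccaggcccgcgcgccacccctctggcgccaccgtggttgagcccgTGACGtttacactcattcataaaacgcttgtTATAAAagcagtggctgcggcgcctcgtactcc
JUNB: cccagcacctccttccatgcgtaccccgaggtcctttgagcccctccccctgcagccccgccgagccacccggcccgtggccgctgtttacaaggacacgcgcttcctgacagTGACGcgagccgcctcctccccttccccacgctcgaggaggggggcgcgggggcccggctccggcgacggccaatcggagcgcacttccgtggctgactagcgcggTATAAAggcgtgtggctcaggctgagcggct
JUN: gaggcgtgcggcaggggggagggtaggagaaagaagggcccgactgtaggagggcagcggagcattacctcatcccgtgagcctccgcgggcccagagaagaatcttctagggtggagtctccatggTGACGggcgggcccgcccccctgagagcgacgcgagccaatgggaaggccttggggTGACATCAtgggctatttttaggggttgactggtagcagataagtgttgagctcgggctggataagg
EGR1: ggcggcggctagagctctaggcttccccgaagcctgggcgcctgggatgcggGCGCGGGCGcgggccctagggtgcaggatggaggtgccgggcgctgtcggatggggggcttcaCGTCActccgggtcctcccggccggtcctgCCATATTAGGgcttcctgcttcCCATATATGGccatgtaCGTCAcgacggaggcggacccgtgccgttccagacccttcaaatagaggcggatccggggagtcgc

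FOS and JUNB shared a layout, with TGACG upstream (from -64 to -60 and from -137 to -133) and TATAAA close to the start (from -33 to -28 and from -31 to -26). FOSB had both as well. TGACG was not particular to them, being in the windows of 7 of the 8 members: FOS, FOSB, JUN, JUNB, JUND, EGR1 and IER2. JUND alone held TGACGTCA, from -200 to -193. JUN held TGACG from -123 to -119 and TGACATCA from -67 to -60. EGR1 held 2 CArG boxes, from -105 to -96 and from -83 to -74, and an EGR site from -198 to -190. It also held TGACG on the other strand, from -135 to -131 and from -66 to -62. Among the member windows, that of EGR1 alone held a CArG box or an EGR site, and none held TGACTCA. Bases further upstream were not searched, so a motif absent from a window may still lie outside it. ATF3 carried TGACATCA at its upstream start, from -123 to -116, the same letters as in JUN. That stretch is shown for both genes with the site in capitals, chr1:212565273-212565302 (plus strand) for ATF3 and chr1:58784096-58784125 (minus) for JUN.
ATF3: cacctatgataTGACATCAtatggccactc
JUN: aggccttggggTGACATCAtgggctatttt

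**Figure D1:**
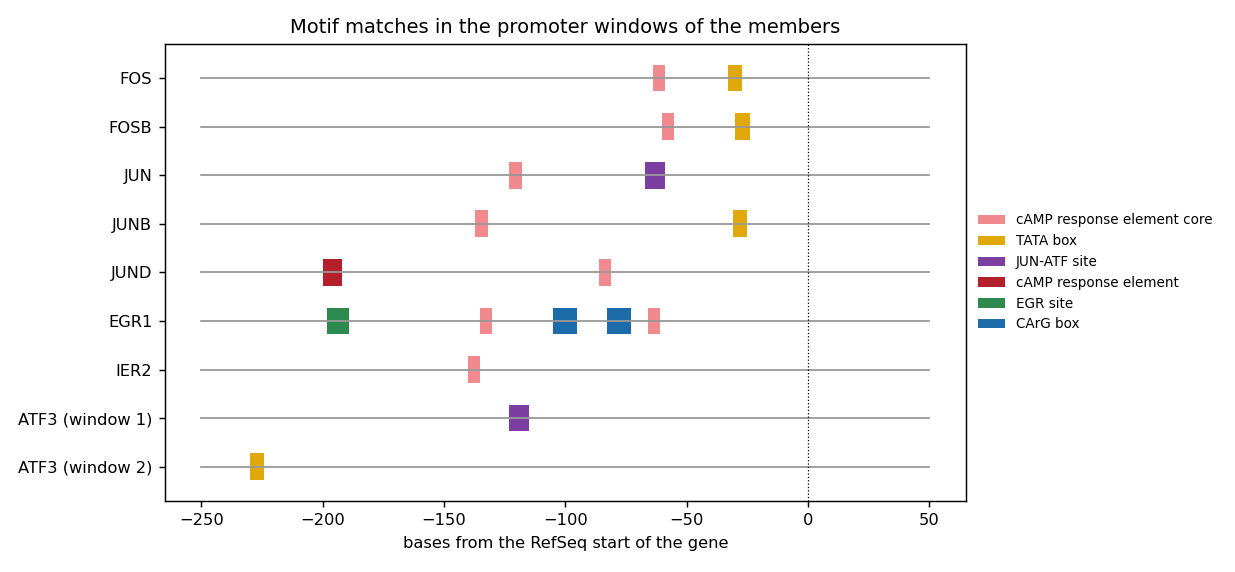
Position of each motif match in the 9 promoter windows of 8 members, in bases from the RefSeq start (dotted line at 0). Matches of TATAAA lie next to the start in FOS, FOSB and JUNB, 2 CArG boxes lie in EGR1, and TGACATCA lies in JUN and in the first ATF3 window.

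RNA abundance was measured as TPM, in which each gene's reads are divided by transcript length and by the library total, so levels can be set side by side between genes but depth and counting error are unknown. Fold changes were tested within each table with limma on log2(scaled TPM + 0.5), a scale that understates changes of genes with low TPM, and adjusted p-values are Benjamini-Hochberg values over all genes tested. A gene was called where the fold change was at least 2 and the adjusted p at most 0.05. SETD2 itself had a TPM in the second table of 12.0 and 12.2 in KO, 439 and 422 under SETD2 FL, and 1329 and 1264 under SETD2 C, so its transcript was 2.75-fold higher under SETD2 C than under SETD2 FL (log2 fold change 1.46, SE 0.06, adjusted p = 7.06e-06, limma), counted against annotated SETD2 transcripts and not against the constructs. In the first table it was 12.6 and 14.8 in WT and 16.2 and 16.3 in the libraries labelled KO (0.11, SE 0.08, adjusted p = 0.408), so the transcript level does not check the KO label. Replicates correlated across genes with Pearson's r of 0.993 to 0.995 on the log2 scale, and genes are not independent replicates. HEK293T markers were present in every library, at a summed TPM over 7 genes of 1086 and 1088 in KO, 916 and 1044 under SETD2 FL and 1553 and 1631 under SETD2 C. VIM alone was at 444 to 926 over all libraries. PAX2 and LHX1 were low, at 0.99 to 2.21 and 0.62 to 1.49, below COL1A1, a marker of other cell types, at 6.43 to 12.1. NEFL, NEFM and KRT8 of that list were called higher under SETD2 C than with KO and than under SETD2 FL. Markers of other cell types summed to 7.10 and 7.18 in KO, 7.22 and 9.17 under SETD2 FL and 12.6 and 11 under SETD2 C, nearly all of it COL1A1, while PTPRC, KRT5, PECAM1 and ALB stayed at or under a TPM of 0.38. The 13 mitochondrially encoded protein genes took 5.88% to 6.73% of TPM in KO, 7.43% to 10.4% under SETD2 FL and 2.44% to 2.78% under SETD2 C. In the first table they took 22.6% in WT replicate 1, 13.8% in WT replicate 2 and 11.8% and 12.2% in KO. All 13 were lower in KO than in WT there, with a median log2 fold change of -0.74. The part of these shifts in the results that follow was not tested. In bulk RNA, a change in every cell and a larger change in some of the cells, such as the transfected ones, cannot be told apart.

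The members differed widely in level. Among untreated KO cells of the second table, JUN was the most abundant, with a TPM of 209 and 232, followed by ATF3 with 97.0 and 114, JUND with 38.5 and 46.3, IER2 with 18.0 and 17.8, JUNB with 7.78 and 7.59 and FOS with 1.82 and 1.69. EGR1 (1.04 and 0.74) and FOSB (0.87 and 0.73) overlapped, and so did FOSL1 (0.15 and 0.32) and EGR3 (0.17 and 0.27), whereas every other neighbour in this order was separated. With SETD2 C, JUN came first again and its libraries (402 and 459) lay above those of ATF3 (298 and 357), while FOS stood well clear of EGR1 and FOSB. EGR3 passed the filter on low values in the first table but not in the second, which left 9 members tested there. FOSL1 had a TPM under the filter's 0.5 in both KO libraries and passed it only through the transfected groups.

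**Figure D2:**
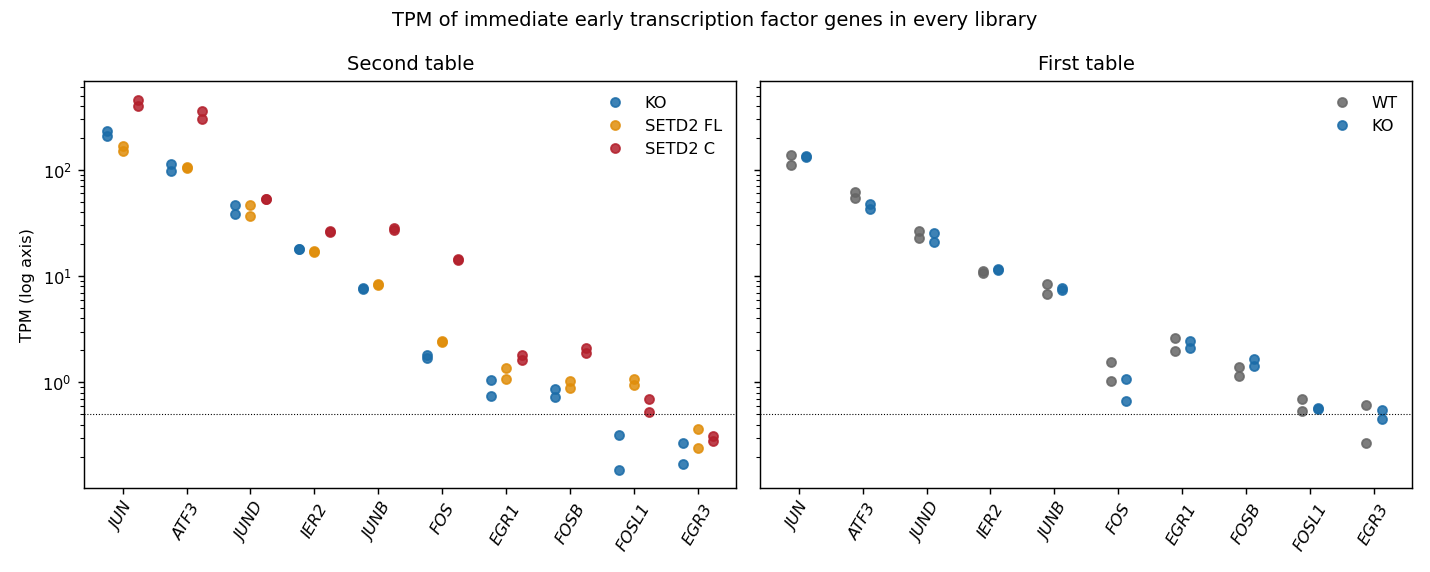
TPM (log axis) of the 10 members in each library of the second table (left) and the first table (right), 1 point per library and 2 libraries per group; the dotted line marks a TPM of 0.5. The SETD2 C points of FOS, JUNB, ATF3 and JUN lie above both other groups, and WT and KO lie close to each other for every member.

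SETD2 C was first compared with untreated KO cells, which asks what the C-terminal construct and its transfection together altered. FOS, JUNB and ATF3 rose, by 6.01-fold, 3.13-fold and 2.80-fold. JUN, FOSB, EGR1 and IER2 passed the adjusted p but not the 2-fold threshold, and JUND and FOSL1 passed neither. Thus 3 of 9 members tested were called higher and none lower, where 3.75% of all 15933 genes tested were called higher and 0.314% lower. By the adjusted p alone 7 of 9 were higher and 0 were lower, against 21.1% and 15.1% of genes. The values of both SETD2 C libraries lay above those of both KO libraries for 9 of 9 members, which held for 40.5% of genes. FOSL1 is among the 9 and passed the filter only through the transfected groups, so it adds nothing to this count. The median log2 fold change of the 9 was 0.82, and that of all genes 0.05.

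FOS, the partner-dependent subunit of AP-1, had a TPM of 1.82 and 1.69 in KO and of 14.1 and 14.6 under SETD2 C. Its groups were far apart, with replicates differing little (log2 fold change 2.59, SE 0.10, 95% interval 2.36 to 2.82, adjusted p = 6.90e-06, limma). FOSB, its paralog, went from 0.87 and 0.73 to 2.11 and 1.89 (0.84, SE 0.16, adjusted p = 0.00551). FOSL1, the FRA1 protein's gene, was at 0.15 and 0.32 in KO and 0.70 and 0.52 under SETD2 C (0.53, SE 0.21, adjusted p = 0.0764), a difference that did not pass.

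Within the JUN family, 1 of 3 genes was called. JUNB, a weaker activator than JUN, had a TPM of 7.78 and 7.59 in KO and 28.4 and 27.2 under SETD2 C (log2 fold change 1.64, SE 0.07, adjusted p = 9.35e-06, limma). JUN, the most abundant member, was at 209 and 232 in KO and at 402 and 459 under SETD2 C (0.82, SE 0.08, adjusted p = 0.000428), larger than the replicate spread but under 2-fold. JUND, the family member that cells express most steadily, was at 38.5 and 46.3 in KO and 53.0 and 53.6 under SETD2 C. Although its groups did not overlap, that difference did not pass (0.19, SE 0.11, 95% interval -0.07 to 0.44, adjusted p = 0.222). The JUNB exons share 259 of 1830 bases (14.2%) with HOOK2 on the opposite strand, and the use of strand in the counting is not given in the sources used here, so their reads may not be separated. HOOK2 had a TPM of 15.0 and 11.8 in KO and 21.4 and 21.0 under SETD2 C (0.51, adjusted p = 0.00896).

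ATF3, the stress-induced zipper protein, had a TPM of 97.0 and 114 in KO and 298 and 357 under SETD2 C (log2 fold change 1.48, SE 0.10, adjusted p = 7.55e-05, limma). Its SETD2 C libraries lay above every KO value by more than the spread of either group. IER2 went from 18.0 and 17.8 to 25.98 and 26.4 (0.39, SE 0.06, adjusted p = 0.00277), a small difference between tight replicates. Its exons overlap 2 lncRNA genes on the opposite strand, of which AC011446.2 was at a TPM of at most 0.60 in every library and the other was not listed. EGR1 was low throughout, at 1.04 and 0.74 in KO and 1.79 and 1.62 under SETD2 C (0.57, SE 0.17, adjusted p = 0.0350). EGR3 (ENSG00000179388, chromosome 8, 22687659 to 22693480, minus strand) was at 0.17 and 0.27 in KO and 0.28 and 0.31 under SETD2 C, and a fit without the filter gave 0.10 (SE 0.12, adjusted p = 0.619).

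SETD2 FL was compared with the same KO libraries, to ask what full-length SETD2 and its transfection altered. No member passed the adjusted p in either direction. Over all genes 0.0753% were called higher and 0.00628% lower, with 0.176% and 0.0314% when the fold threshold was dropped, so few calls were made anywhere. An unadjusted p under 0.05 was reached by 15.9% of genes and, among the members, by FOS, FOSL1 and JUN. The groups did not overlap for 6 of 9 members, against 48.2% of genes. FOSL1, which passed the filter only through the transfected groups, is among the 6 and adds nothing to these counts. The median log2 fold change was 0.10 over the members and 0.01 over all genes.

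JUN was at 209 and 232 in KO and 152 and 169 under SETD2 FL, so both SETD2 FL libraries were the lower ones (log2 fold change -0.47, SE 0.08, 95% interval -0.66 to -0.29, adjusted p = 0.0854, limma). FOSL1 was at 0.15 and 0.32 in KO and 1.08 and 0.94 under SETD2 FL, where its level was highest of the 3 groups (1.05, SE 0.21, adjusted p = 0.113). FOS was at 1.82 and 1.69 and at 2.38 and 2.43 (0.35, SE 0.10, adjusted p = 0.184). JUNB was at 7.78 and 7.59 in KO and 8.26 and 8.51 under SETD2 FL (0.10, 95% interval -0.07 to 0.27, adjusted p = 0.530). ATF3 was at 97.0 and 114 in KO and 103 and 106 under SETD2 FL (-0.02, 95% interval -0.25 to 0.20, adjusted p = 0.929). Intervals this narrow exclude a 2-fold change in JUNB and ATF3 on this scale, in these libraries. FOSB, JUND, EGR1 and IER2 had log2 fold changes from -0.08 to 0.30 and adjusted p-values from 0.431 to 0.863. EGR3, at 0.24 and 0.36 under SETD2 FL, had 0.15 without the filter (SE 0.12, adjusted p = 0.689).

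The 2 transfected groups were then compared with each other, so both sides had been transfected. This separates the constructs neither from the amount of SETD2 transcript nor from the efficiency of each transfection, which the labels do not give. The libraries are labelled replicates 3 and 4 for SETD2 FL and 1 and 2 for SETD2 C. They share no number, so a difference tied to these numbers cannot be told apart from the construct. FOS, JUN, JUNB and ATF3 rose under SETD2 C relative to SETD2 FL, by 4.71-fold, 2.44-fold, 2.92-fold and 2.85-fold. These were 4 of 9 members tested, with none called lower, where 3.36% of genes were called higher and 0.421% lower. By the adjusted p alone 6 were higher, FOSB and IER2 in addition, and 0 lower, against 21.4% and 16.8% of genes. Both SETD2 C libraries lay above both SETD2 FL libraries for 8 of 9 members, against 40.3% of genes, the exception being FOSL1. The median log2 fold change was 0.68 over the members and 0.04 over all genes.

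FOS was at 2.38 and 2.43 under SETD2 FL against 14.1 and 14.6 under SETD2 C (log2 fold change 2.24, SE 0.10, adjusted p = 9.35e-06, limma). JUNB was at 8.26 and 8.51 against 28.4 and 27.2 (1.55, SE 0.07, adjusted p = 1.12e-05). ATF3 was at 103 and 106 against 298 and 357 (1.51, SE 0.10, adjusted p = 6.15e-05). For these genes SETD2 FL lay near KO, so the difference from SETD2 FL was close in size to that from KO. JUN differed more from SETD2 FL than from KO, at 152 and 169 against 402 and 459 (1.29, SE 0.08, adjusted p = 4.80e-05). The order of its groups was SETD2 FL, KO and SETD2 C, with no overlap between any of them.

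FOSB was at 1.02 and 0.89 under SETD2 FL against 2.11 and 1.89 under SETD2 C (log2 fold change 0.68, SE 0.16, adjusted p = 0.0114, limma). IER2 was at 17.0 and 17.2 against 25.98 and 26.4 (0.47, SE 0.06, adjusted p = 0.00111). Both lay above SETD2 FL in each SETD2 C library without reaching 2-fold on the tested scale, which understates changes at the low TPM of FOSB. EGR1 was at 1.07 and 1.37 against 1.79 and 1.62 (0.27, SE 0.17, 95% interval -0.13 to 0.66, adjusted p = 0.249). JUND was at 36.9 and 46.4 against 53.0 and 53.6 (0.23, SE 0.11, adjusted p = 0.128). Among the members tested, FOSL1 alone had a lower level under SETD2 C, at 1.08 and 0.94 against 0.70 and 0.52 (-0.52, SE 0.21, adjusted p = 0.0783, limma), which did not pass. EGR3 had -0.05 without the filter (adjusted p = 0.805).

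**Figure D3:**
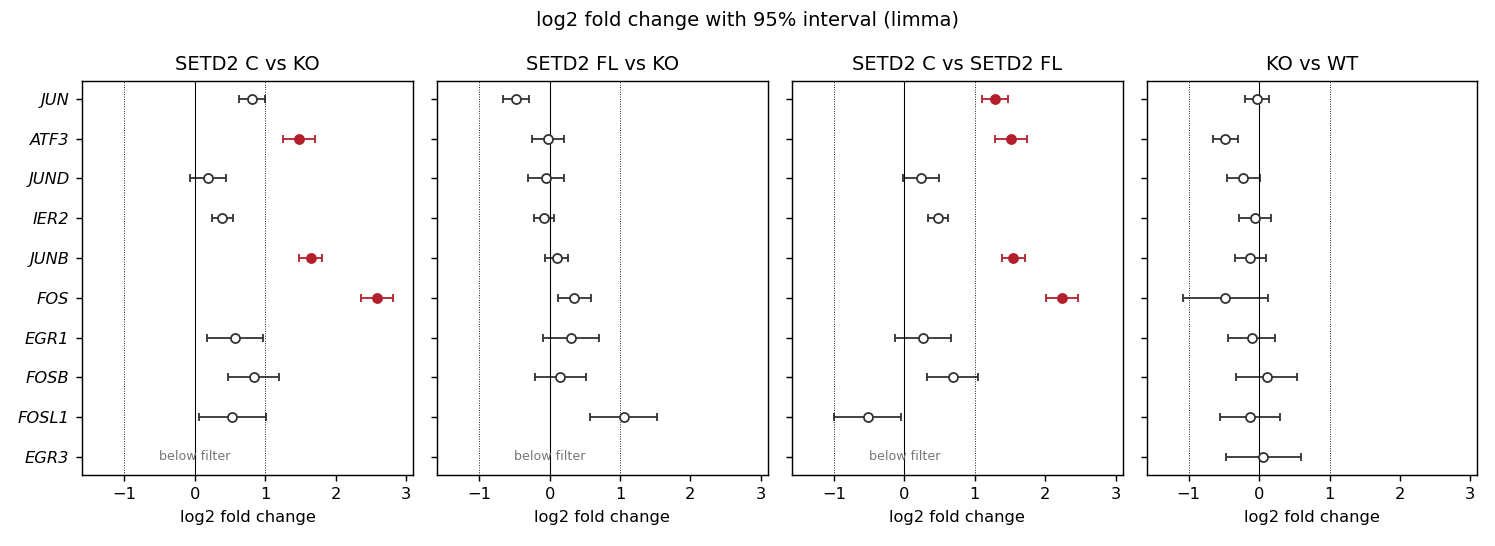
Log2 fold change of each member with its 95% interval from limma in the 4 comparisons; filled points passed a fold change of 2 and an adjusted p of 0.05, and dotted lines mark 2-fold in each direction. Filled points are FOS, JUNB and ATF3 for SETD2 C against KO, and JUN in addition for SETD2 C against SETD2 FL, with none in the other comparisons.

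AP-1 is a dimer, so the summed TPM of the members in each family was also described. The FOS sum leaves out FOSL2, a family gene outside the members. FOSL2 was at a TPM of 1.21 and 1.3 in KO, 1.7 and 1.77 under SETD2 FL and 6.67 and 6.22 under SETD2 C. FOS, FOSB and FOSL1 together came to 2.84 and 2.74 in KO, 4.48 and 4.26 under SETD2 FL, and 16.9 and 17.0 under SETD2 C. JUN, JUNB and JUND came to 255 and 286 in KO, 197 and 224 under SETD2 FL, and 483 and 540 under SETD2 C. The JUN, JUNB and JUND sum thus exceeded the FOS, FOSB and FOSL1 sum in every library. The ratio, without FOSL2, was 89.9-fold and 104-fold in KO, 44.04-fold and 52.6-fold under SETD2 FL and 28.6-fold and 31.7-fold under SETD2 C. FOS made up 64.1% and 61.7% of the FOS, FOSB and FOSL1 sum in KO, 53.1% and 57.0% under SETD2 FL and 83.4% and 85.9% under SETD2 C. JUN held 75.5% to 85.04% of its own family in all 6 libraries, and JUNB held 3.05% and 2.66% in KO and 5.87% and 5.03% under SETD2 C. These sums are descriptions, with no test.

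**Figure D4:**
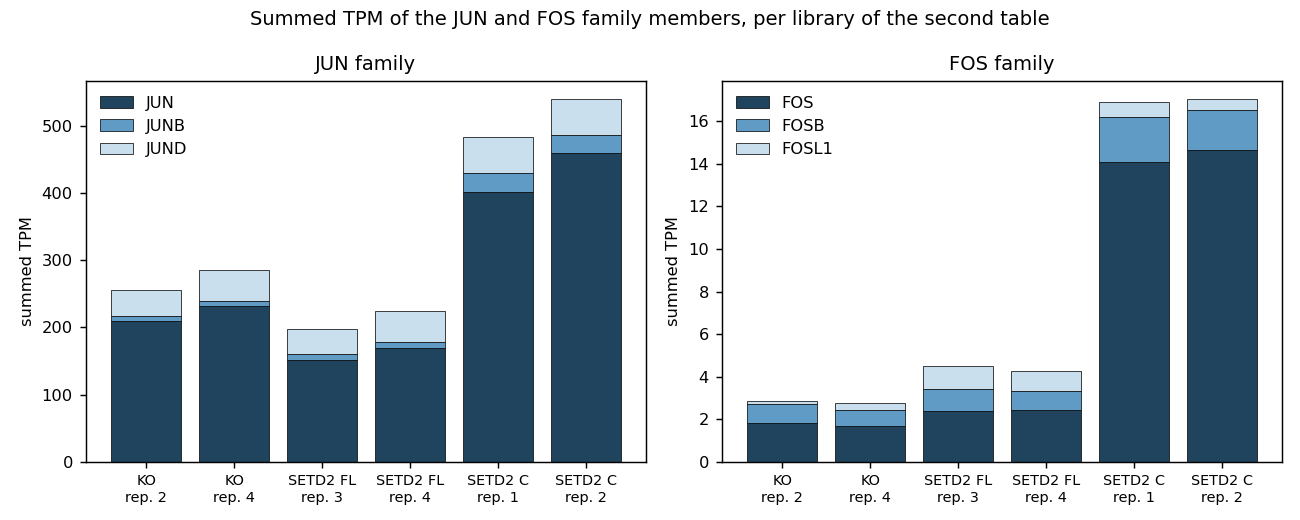
Summed TPM of JUN, JUNB and JUND (left) and of FOS, FOSB and FOSL1 (right) in each library of the second table, stacked by gene. FOSL2 is left out, and the axes have different scales that start at 0. The sum on the right reaches 16.9 and 17.0 under SETD2 C against 2.74 to 4.48 in the other 4 libraries, and FOS makes up most of it.

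The KO cells are a derived line, so loss of SETD2 cannot be told apart from other differences between that line and WT. KO was compared with WT in the first table. None of the 10 members, all tested there, was called, where 0.339% of 14746 genes were called higher and 1.02% lower, and an unadjusted p under 0.05 was reached by 24.9% of genes and, among the members, by ATF3. ATF3 was at a TPM of 54.1 and 61.5 in WT and 47.4 and 42.9 in the libraries labelled KO, a decrease that passed the adjusted p but not 2-fold (log2 fold change -0.48, SE 0.08, adjusted p = 0.0247, limma). At the adjusted p alone 3.17% of genes were lower and 1.32% higher. This call was lost under some other settings, with adjusted p-values from 0.0151 to 0.222.

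FOS was at 1.54 and 1.03 in WT and 1.07 and 0.66 in the libraries labelled KO, which overlapped (log2 fold change -0.48, SE 0.25, 95% interval -1.09 to 0.12, adjusted p = 0.283, limma). Its wide interval does not exclude a 2-fold decrease. JUN was at 111 and 139 in WT and 134 and 132 in KO (-0.03, SE 0.07, 95% interval -0.20 to 0.13, adjusted p = 0.803). JUNB was at 6.84 and 8.38 and at 7.66 and 7.41 (-0.13, SE 0.09, adjusted p = 0.422). EGR1, at 1.95 and 2.61 in WT and 2.45 and 2.09 in KO, also overlapped (-0.10, SE 0.14, adjusted p = 0.690). FOSB, FOSL1, JUND, EGR3 and IER2 had log2 fold changes from -0.22 to 0.11 and adjusted p-values from 0.213 to 0.893. The median over the 10 members was -0.12, and that over all genes -0.01.

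The other early response genes were examined in a list of 37, of which 36 were tested in the second table. With SETD2 C, 11 were called higher than in KO and none lower, and 24 passed the adjusted p as higher and 4 as lower, with a median log2 fold change of 0.59. Over all genes the shares were 3.75% and 0.314% called, and 21.1% and 15.1% by the adjusted p, with a median of 0.05. The largest increases were in GADD45B, FOSL2, IER3, ID1 and SGK1. GADD45B, a stress protein that binds an upstream kinase of JNK and p38, went from a TPM of 9.66 and 7.06 to 34.3 and 39.5 (1.95, SE 0.13, adjusted p = 8.36e-05, limma). FOSL2, the remaining FOS family gene, went from 1.21 and 1.3 to 6.67 and 6.22 (1.86, SE 0.12, adjusted p = 5.91e-05). Thus FOS and FOSL2 rose, while FOSL1 did not pass. FOSB stayed under 2-fold where 0.5 was added to its scaled TPM, and was called where 0.1 was added (1.09). Its place in this family thus depends on that setting. IER3, a survival factor of the stress response, went from 15.4 and 15.7 to 60.3 and 64.0 (1.82). ID1, an inhibitor of helix-loop-helix factors, went from 17.4 and 15.2 to 64.9 and 59.95 (1.76), and SGK1, a serum-induced kinase, from 1.96 and 2.32 to 9.22 and 9.29 (1.76). The 4 that were lower at the adjusted p alone, named after their values were seen, were MYC, ZFP36L2, SRF and TRIB1. MYC, itself an early response gene and a growth regulator, was at 290 and 292 in KO and 196 and 186 under SETD2 C (-0.76, adjusted p = 0.000202).

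SETD2 C against SETD2 FL gave 12 genes of the list higher and none lower, 23 higher and 3 lower without the fold threshold, and a median of 0.64. Over all genes, 3.36% were called higher and 0.421% lower, the adjusted p alone gave 21.4% and 16.8%, and the median was 0.04. IER3 (log2 fold change 1.94), ID1 (1.77), GADD45B (1.69), FOSL2 (1.52) and ARC (1.42) led it. ARC, a gene of synaptic activity in neurons, had a TPM of 1.25 and 1.64 under SETD2 FL and 5.61 and 4.59 under SETD2 C. Against KO, SETD2 FL gave no call in the list and a median of -0.0014. RHOB, an early response GTPase, was the 1 gene lower there at the adjusted p alone, named after its values were seen, at 144 and 164 in KO and 88.5 and 98.2 under SETD2 FL (-0.74, adjusted p = 0.0370). Over all genes 0.0753% were called higher and 0.00628% lower, and 0.0314% were lower at the adjusted p alone. Like JUN, RHOB was highest under SETD2 C, at 235 and 276. KO and WT gave no call among 34 genes tested, where 0.339% of all genes were called higher and 1.02% lower.

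**Figure D5:**
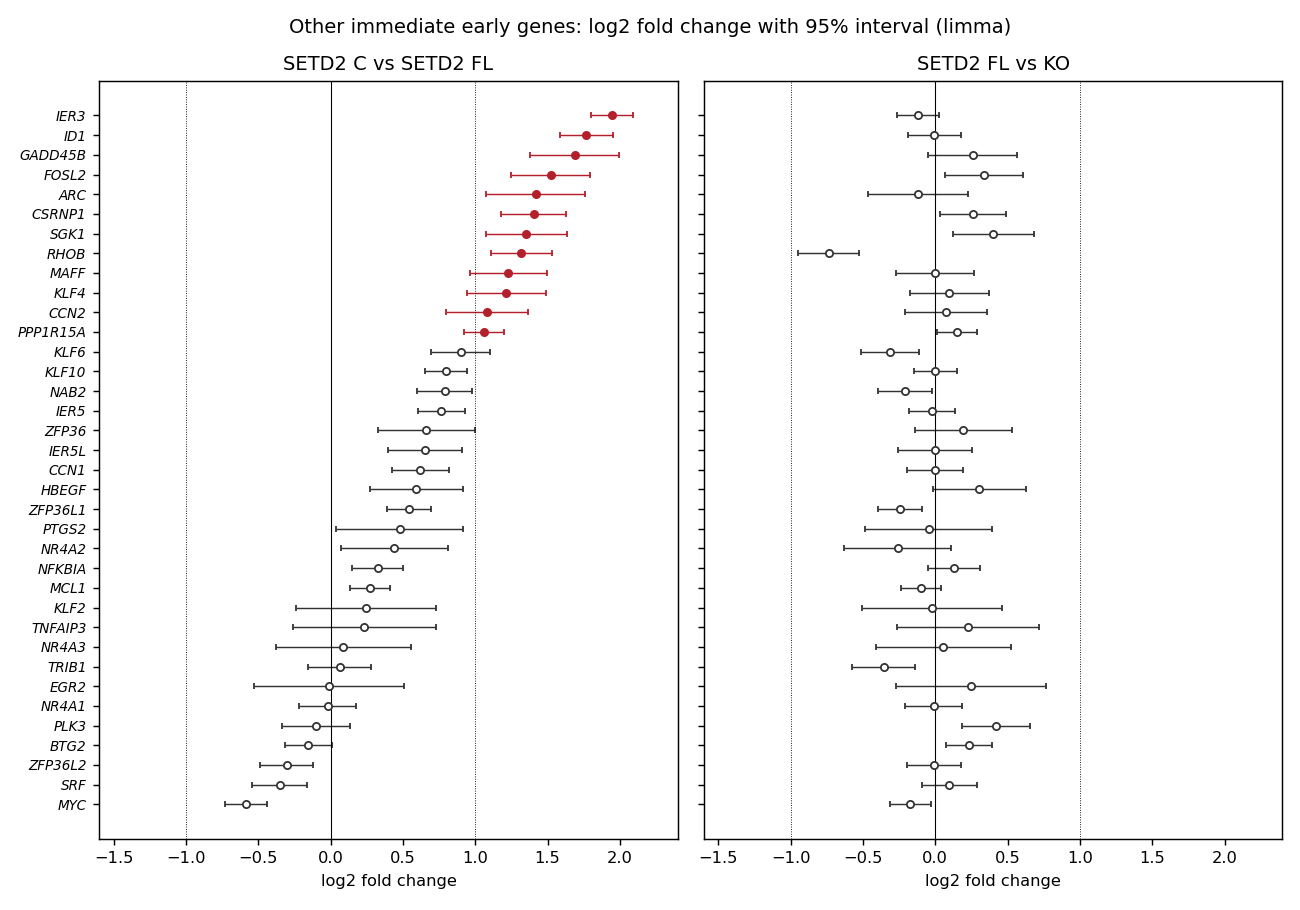
Log2 fold change with its 95% interval from limma for 36 other immediate early genes, for SETD2 C against SETD2 FL (left) and SETD2 FL against KO (right), in the order of the left panel; filled points passed a fold change of 2 and an adjusted p of 0.05. On the left 12 genes are filled, all on the higher side, with MYC at the lower end, and on the right none is.

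Genes that act with or before the members were examined next. Of 20 other zipper partners of FOS and JUN, 17 were tested, and FOSL2, DDIT3 and MAFF were called higher under SETD2 C than with KO and than under SETD2 FL. DDIT3, a stress-induced C/EBP family factor, was at a TPM of 21.0 and 17.7 in KO, 19.6 and 22.4 under SETD2 FL and 56.0 and 52.9 under SETD2 C (log2 fold change 1.33 against KO). MAFF, a small MAF protein, was at 2.02 and 2.32 in KO, 2.13 and 2.26 under SETD2 FL and 6.15 and 6.53 under SETD2 C (1.23 against KO). FOSL2 and MAFF are also in the list of early response genes. The 3 of 17 stand beside 3.75% and 3.36% of all genes called higher in these comparisons, and the median over the 17 was 0.19 against KO and 0.18 against SETD2 FL. By the adjusted p alone 7 were higher and 1 lower against KO, beside 21.1% and 15.1% of genes. Against SETD2 FL 7 were higher and 3 lower, beside 21.4% and 16.8%. The lower ones, named after their values were seen, were ATF4 in both comparisons and JDP2 and CEBPB against SETD2 FL. ATF4 was at 687 and 648 in KO and 531 and 540 under SETD2 C (-0.46, adjusted p = 0.000675, limma). Of 29 regulators upstream, the kinases of the RAS-ERK, JNK and p38 routes with SRF, its cofactors and CREB factors, 1 was called under SETD2 C against KO and none against SETD2 FL, with medians of -0.05 and -0.01. The 1 of 29 is near the share of all genes called higher, 3.75%, and so is no result about the list. That gene was BRAF, at 8.07 and 7.85 in KO and 16.2 and 20.5 under SETD2 C (1.003, SE 0.11, adjusted p = 0.000622), at the threshold itself and called under 11 of 17 settings, being lost without KO replicate 4 (0.99) or SETD2 C replicate 2 (0.84). SRF, which binds the CArG box, was at 15.4 and 13.7 in KO, 15.0 and 16.6 under SETD2 FL and 13.7 and 13.1 under SETD2 C.

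EGR2, EGR4, the EGR corepressors NAB1 and NAB2 and genes known as targets of EGR or AP-1 made up a list of 20, of which 17 were tested in the second table. With SETD2 C, HMOX1 and LIF were called higher than in KO, 10 were higher at the adjusted p alone and none lower, and the median was 0.57, where 3.75% of all genes were called higher and 21.1% passed the adjusted p as higher. HMOX1, which degrades haem under oxidative stress, was at a TPM of 29.8 and 26.6 in KO, 52.3 and 53.2 under SETD2 FL and 84.2 and 77.9 under SETD2 C. LIF, a cytokine, was at 0.28 and 0.40 in KO, 1.91 and 1.85 under SETD2 FL and 1.53 and 1.61 under SETD2 C, and was called for SETD2 FL against KO too (log2 fold change 1.51, adjusted p = 0.0322, limma). LIF was under the filter's 0.5 in both KO libraries and passed only through the transfected groups, so its calls describe the levels and add nothing to the list's count. Its call for SETD2 C against KO held in 14 of 16 settings and was lost at a pseudocount of 1 (0.87) and with quantile normalization (0.85). That for SETD2 FL against KO held in 10 of 16, and was lost when any 1 of the 4 libraries was left out. None of the list was called between SETD2 C and SETD2 FL, where 3.36% of all genes were called higher and 0.421% lower. In the first table CD44, a surface receptor for hyaluronan, fell in KO, from 2.27 and 3.22 to 0.91 and 0.50 (-1.53, adjusted p = 0.0141, limma). This call held in 15 of 16 settings and was lost with no filter on low values (limma adjusted p = 0.0993). CD44 was the 1 gene called of 16 tested, where 1.02% of all genes were called lower.

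Genes of interferon and DNA sensing were examined because transfected plasmid DNA can induce them in some cells. Whether HEK293T cells can raise them was not tested, so no conclusion about transfection is drawn from this list. Of 15 listed, 6 were tested and none was called in any comparison by limma, where at most 4.06% of all genes were. IRF7, named after its values were seen, passed the adjusted p for SETD2 C against KO (log2 fold change 0.89, adjusted p = 0.00722, limma). That was 1 of 6, beside 21.1% of all genes higher by the adjusted p, and so is no result about the list. For the same comparison 1 gene of the list was called at a pseudocount of 0.1, without KO replicate 2 and without SETD2 C replicate 2. CXCL10, an interferon-induced chemokine that was under the filter and is named after its values were seen, was at a TPM of 0 in both KO libraries, 0.03 and 0.03 under SETD2 FL and 0.12 and 0.32 under SETD2 C. IFNB1 was listed at 0 in every library, and ISG15, an interferon-induced modifier, was at a TPM of 6.49 and 5.64 in KO, 6.15 and 6.19 under SETD2 FL and 6.51 and 6.91 under SETD2 C.

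The genes whose pattern over the 6 libraries of the second table lay nearest to FOS, among those with a mean TPM of at least 5, were ANXA1, CRABP2 and NEAT1. Their Euclidean distances on the centred log2 scale were 0.24, 0.34 and 0.37. ANXA1, for example, was at a TPM of 6.05 and 6.15 in KO, 6.62 and 8.32 under SETD2 FL and 39.1 and 42.2 under SETD2 C. The nearest to EGR1 were C2orf74, ARMCX5 and CD27-AS1, at distances of 0.10, 0.17 and 0.20. C2orf74 was at 19.8 and 15.7, 21.1 and 25.7, and 31.9 and 30.4 in the same order. These 6 points share their libraries, and the likeness is a description.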

How the data were processed

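RNA-seq libraries of HEK293T cells were analysed as 2 groups of 2 in a first table and 3 groups of 2 in a second, grouped by the sample labels. The authors aligned reads with STAR 2.6.1c, and the deposited values are TPM per gene from RSEM 1.3.0, with no scaling between libraries. TPM keeps no depth, and a rise in some genes lowers the others. The ChIP-seq tracks were not used here.

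Libraries were put on one scale by the median ratio of their genes to the geometric mean, taken over genes whose TPM reached 1 in all libraries of the table (factors 0.879 to 1.07). Genes of protein-coding or lncRNA type whose TPM reached 0.5 in 2 or more libraries entered limma 3.58.1 in R 4.3.3 (eBayes with trend, pseudocount 0.5), each table in its own fit with its own spread. An exact permutation test of 2 against 2 cannot go below 0.333 and was not used. Gene types and positions came from GENCODE 44, in which 381 listed genes had no match. Groups were said not to overlap from scaled values. On simulated data with changes of 1.2 to 3 on the log2 scale in 200 of 15933 genes, 194 were recovered with 6 false calls for SETD2 C against KO. The simulated spread was the fitted one and every change lay above 2-fold, so genes near the threshold were not covered.

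All members are named, with SETD2, the called genes of each list whose groups did not overlap (at most 5 per comparison, by size) and the 3 genes nearest in pattern to FOS and to EGR1. ATF7 and TGFB1 were not used. The members and lists were chosen with earlier results of these data known. Alternatives were pseudocounts of 0.1 and 1, other filters, scalings and gene types, eBayes without trend, adjustment for GC content and length, the adjusted p alone, a replicate block, the 2 groups compared alone in the fit, and each library left out.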

Additional observations from a re-analysis of the deposited data

Results flagged for a closer look

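The change under SETD2 C relative to KO differed from the change under SETD2 FL relative to KO for FOS, JUN, JUNB and ATF3, by a test of the difference itself (limma, adjusted over all genes). Both changes share the KO libraries, so their difference equals SETD2 C against SETD2 FL. On the log2 scale it was 2.24 for FOS (SE 0.10, adjusted p = 9.35e-06), 1.29 for JUN (SE 0.08, adjusted p = 4.80e-05), 1.55 for JUNB (SE 0.07, adjusted p = 1.12e-05) and 1.51 for ATF3 (SE 0.10, adjusted p = 6.15e-05), higher in both SETD2 C libraries in each case. JUN is the 1 gene of these whose SETD2 FL libraries lay below KO. The SETD2 transcript itself was 2.75-fold higher under SETD2 C, and its part in these differences was not tested. That value was counted against annotated SETD2 transcripts, so it may not be the ratio of the 2 construct transcripts, which differ in length.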

How the results depend on the processing

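FOS, JUNB and ATF3 were called for SETD2 C against KO under all 17 settings, the reported one included, with log2 fold changes of 2.36 to 2.82, 1.59 to 1.79 and 1.36 to 1.63. For SETD2 C against SETD2 FL, FOS (2.06 to 2.402), JUN (1.198 to 1.42), JUNB (1.49 to 1.67) and ATF3 (1.38 to 1.64) were called under all 17. With the adjusted p alone the members called rose to 7 for SETD2 C against KO and to 1, ATF3, for KO against WT. FOSB against KO was also called at a pseudocount of 0.1 (1.09). Each library left out in turn gave 3 members called for SETD2 C against KO, 4 for SETD2 C against SETD2 FL and 0 for the other comparisons. BRAF kept its call in 11 of 17 settings and fell under it without 1 KO library (0.99, replicate 4) or 1 SETD2 C library (0.84, replicate 2), and LIF for SETD2 FL against KO lost its call without any 1 of the 4 libraries.

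Over all genes, 647 were called for SETD2 C against KO, with 1080 at a pseudocount of 0.1, 373 at 1, 301 where the filter asked for a TPM of 1 throughout and 5764 by the adjusted p alone. The same settings gave 957, 362, 308 and 6087 in place of 603 for SETD2 C against SETD2 FL. In place of 13 for SETD2 FL against KO, these gave 7 at a pseudocount of 1, 6 with the stricter filter and 33 by the adjusted p alone, and 3 were called with no filter, 21 with no scaling, 6 with all gene types and 2 to 6 with 1 library left out. In place of 200 for KO against WT, 128 were called at a pseudocount of 1, 73 with no filter, 83 with the stricter filter, 661 by the adjusted p alone and 123 without KO replicate 2. Without scaling, the median of all genes moved to 0.18, 0.16 and 0.11 for SETD2 C against KO, SETD2 C against SETD2 FL and KO against WT. WT and KO share the numbers 1 and 2, and deviations of equally numbered libraries correlated at 0.15 across genes. A replicate block there left 0 members called, as without it, and 214 of all genes. No paired analysis was possible in the second table because its groups share fewer than 2 numbers. TPM gives no depth, so the counting error of the low members, EGR3, FOSL1, EGR1 and FOSB, is unknown.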

Other observations

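Levels of the untreated KO cells differed between the tables, which were made separately, so the values are set side by side with no test. JUN had a TPM of 134 and 132 in the first table and 209 and 232 in the second, and ATF3 47.4 and 42.9 in the first and 97.0 and 114 in the second. JUND, at 25.3 and 21.0 and then 38.5 and 46.3, and IER2, at 11.48 and 11.54 and then 18.0 and 17.8, were also higher in the second table. FOS was higher there too, at 1.07 and 0.66 in the first table and 1.82 and 1.69 in the second. EGR1 had the opposite order, at 2.45 and 2.09 in the first table and 1.04 and 0.74 in the second. FOSB (1.66 and 1.42, then 0.87 and 0.73), FOSL1 (0.57 and 0.56, then 0.15 and 0.32) and EGR3 (0.55 and 0.45, then 0.17 and 0.27) were likewise lower in the second. JUNB was alike in both, at 7.66 and 7.41 and at 7.78 and 7.59. The mitochondrially encoded protein genes took 11.8% and 12.2% of TPM in the KO libraries of the first table and 6.73% and 5.88% in those of the second.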
